A study of Mus musculus with 6 samples.

Results

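The 40 genes described here encode the contractile apparatus of skeletal muscle, its calcium store and creatine kinase, and the factors that drive muscle formation. They were taken by gene symbol from a fixed list, and all 40 were measured among 19937 genes with a single symbol on the array. RNA came from 6 samples of mouse olfactory septa and turbinates collected on postnatal day 0, with 1 whole-transcript array for each. The pups were C57BL6 offspring of Atf5+/- crosses: 3 samples were Atf5-/- (knockout) and 3 were Atf5+/+ (wild type), with 3 pups of each genotype pooled per sample and different litters used. What was removed from Atf5 is not given in the sources used here. The labelled tissue is olfactory epithelium, so any muscle in a sample came along with the dissected septa and turbinates.

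In striated muscle, myosin heavy and light chains form the thick filament, and actin with tropomyosin and the troponin complex forms the thin filament. Titin and nebulin set filament length, alpha-actinins anchor the filaments at the Z-disc, and the sarcoplasmic reticulum releases and takes back the calcium that switches contraction on and off. Many of these proteins come from small gene families whose members are used in turn, with embryonic and cardiac-type forms early, neonatal forms around birth, and adult fast or slow forms later. MyoD-family factors switch these genes on, and Mymk encodes myomaker, a membrane protein needed for myoblast fusion.

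The 6 arrays had medians of 8.67 to 8.72 on the log2 scale, and their number limits the precision of every value. Atf5 was at 9.43, 9.44 and 9.50 in the knockout arrays, against 10.54, 10.96 and 10.63 in the wild-type arrays (log2 change -1.25, SE 0.10, adjusted p = 0.000499 by limma), in the direction of the labels. Omp, the olfactory marker protein, was at 9.21, 9.06 and 9.07 in the knockout against 11.63, 11.003 and 11.40 in the wild type. Wild-type replicate 1 stood apart from the other 5 arrays for the muscle genes, so values without it are given for the 40 genes as a group and for those described singly. Changes and differences of a gene are log2 knockout minus wild type throughout, whether or not they passed the test. Levels of different genes are not set against each other, because probe sets differ in how strongly they hybridise.

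Of the 40 muscle genes, none passed the test between knockout and wild type (limma over all genes, adjusted p under 0.05), in either direction. A model with the replicate number as a block called 4 higher, Myh3, Myl4, Mylpf and Tnni1, as described further on. In the fit without a block 0.502% of all genes were higher and 3.24% lower in the knockout. The lowest adjusted p among the 40 was 0.205, for Myh3, and 8 of the 40 (20%) had an unadjusted p under 0.05, against 16.1% of all genes. The changes nevertheless lay mostly on one side of 0: 38 of 40 were positive, against 53.0% of all genes. Their median log2 change was 0.28, against 0.01 over all genes. Without wild-type replicate 1, the median of the 40 was 0.08, and 28 were positive and 12 negative, with 10163 of all 19937 genes positive. Again none passed (lowest adjusted p = 0.294 by limma), while 0.135% of all genes were called higher. That array was left out because it was low for these genes, so smaller changes without it follow from the choice. The groups did not overlap for 4 of the 40 genes, Mybpc1, Tnnc1, Neb and Des, all higher in every knockout array, as did 10.8% of all genes.

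Most of the spread lay in a single array. The mean over the 40 genes was 9.21, 9.28 and 9.46 in the knockout, against 8.57, 9.27 and 9.17 in the wild type, so wild-type replicate 2 lay within the knockout range, replicate 3 just below it and replicate 1 below all others. Wild-type replicate 1 was the lowest of the 6 arrays for 36 of the 40 genes (90%), against 20.8% of all genes; the exceptions were Mybpc2, Tcap, Myog and Myf6. It fell short of the next lowest array by at least 0.5 log2 units for 18 of the 40, while only 27 of all 19937 genes (0.135%) showed such a gap. The range over arrays was 1 log2 unit or more for 17 of the 40 genes (1.65% of all genes), and for 0 of them once that array was left out. The median standard deviation of the 40 was 0.16 within the knockout and 0.33 within the wild type, against 0.09 and 0.07 for all genes. For the 40 it was 0.05 between wild-type replicates 2 and 3, a value from 2 arrays instead of 3. In such bulk samples, fewer muscle cells and less muscle RNA per cell cannot be told apart.

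**Figure D1:**
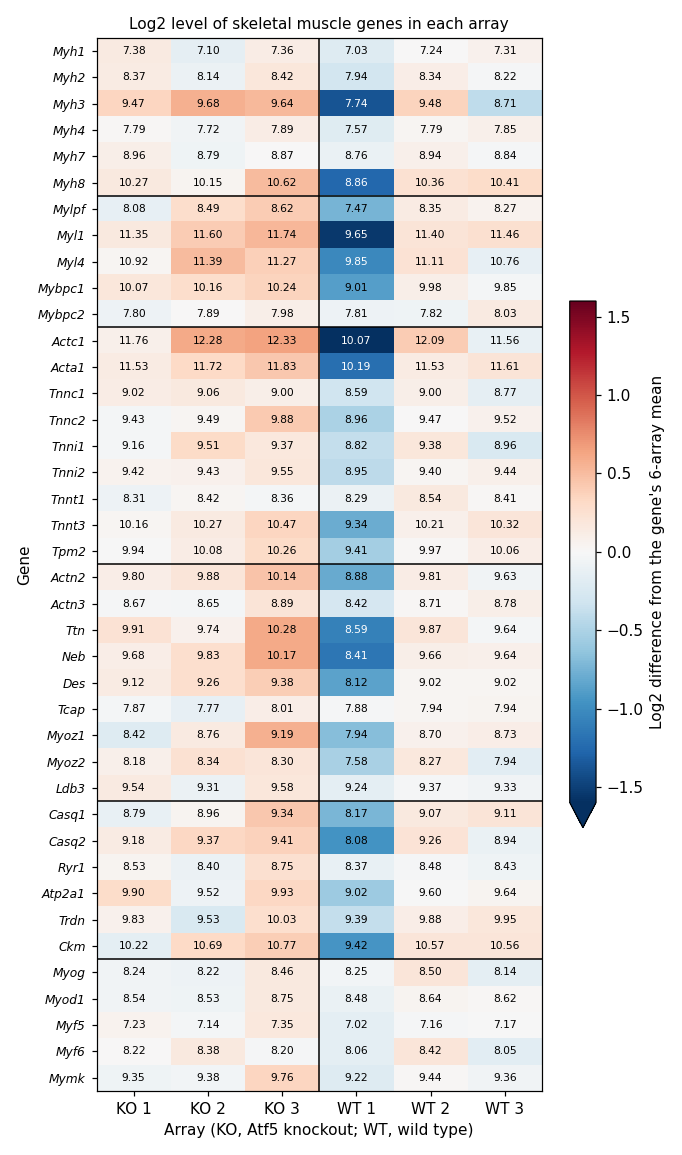
Log2 level of each of the 40 skeletal muscle genes (rows, grouped by role) in the 3 knockout (KO) and 3 wild-type (WT) arrays (columns); numbers are levels and colour is the log2 difference from the gene's mean over 6 arrays. Wild-type replicate 1 was the lowest array for 36 of the 40 genes, and knockout replicate 3 was often the highest.

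Among the 6 myosin heavy chain genes, the embryonic gene Myh3 and the neonatal gene Myh8 varied widely, whereas the adult fast genes Myh1, Myh2 and Myh4 and the slow gene Myh7 varied little. Myh3 was at 9.47, 9.68 and 9.64 in the knockout against 7.74, 9.48 and 8.71 in the wild type. Wild-type replicates 1 and 3 were therefore low, and replicate 2 reached the lowest knockout array. The change was 0.96 (SE 0.34, 95% interval 0.19 to 1.73, adjusted p = 0.205 by limma), and 0.50 (SE 0.19, adjusted p = 0.352) without wild-type replicate 1. With the replicate block the adjusted p was 0.0438. Myh8 was at 10.27, 10.15 and 10.62 in the knockout against 8.86, 10.36 and 10.41 in the wild type. Here only the first wild-type array was low, and the change of 0.47 (SE 0.35) became -0.04 (SE 0.13) without it.

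The 4 other heavy chains had ranges of 0.20 (Myh7) to 0.48 (Myh2) over the 6 arrays and changes of 0.03 to 0.14. Their mean levels lay at the 15.5 (Myh1), 23.0 (Myh4), 32.0 (Myh2) and 46.1 (Myh7) percentiles of all genes. There was no detection call, and whether a narrow range reflects signal near background was not tested. Wild-type replicate 1 was still the lowest array for each of them, by 0.03 (Myh7), 0.07 (Myh1), 0.14 (Myh4) and 0.20 (Myh2) log2 units. Myh3, Myh2, Myh1, Myh4 and Myh8 follow each other on chromosome 11 with 0 other protein-coding genes between them in the RefSeq gene table. The wide and the narrow ranges thus occurred among neighbouring genes. These genes are close paralogs, and whether their probes are shared was not tested.

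The 2 genes of this row that varied most are shown by the 150 bases before their start, from the RefSeq promoter table (build GRCm38.p6), read 5′ to 3′ on the gene's strand. Capitals mark matches, on either strand, to the E-box CANNTG, bound by MyoD-family factors, to the TATA-type sequence TATAAA, to the CArG box of serum response factor or to the MEF2 motif. Myh3 lies at chr11:67078150-67078299 on the plus strand, with TATAAA 29 to 24 bases before the start. Myh8 lies at chr11:67276974-67277123 on the plus strand, with a TATAAA match on the opposite strand (bases 96 to 91) and an E-box (bases 32 to 27).
Myh3: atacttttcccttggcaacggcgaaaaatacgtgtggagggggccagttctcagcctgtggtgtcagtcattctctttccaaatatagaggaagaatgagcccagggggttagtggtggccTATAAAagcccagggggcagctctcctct
Myh8: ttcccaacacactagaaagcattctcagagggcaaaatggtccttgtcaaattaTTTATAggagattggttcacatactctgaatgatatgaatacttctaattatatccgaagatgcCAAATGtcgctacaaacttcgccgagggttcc

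Of the 5 genes for myosin light chains and myosin-binding proteins, 4 were lowest in wild-type replicate 1, and Mybpc2 was not. Myl1, the fast alkali light chain, was at 11.35, 11.60 and 11.74 in the knockout against 9.65, 11.40 and 11.46 in the wild type. The first wild-type array was 3.43-fold below the mean of the other wild-type arrays, more than for any other member, and the change of 0.73 (SE 0.40, adjusted p = 0.432 by limma) was 0.13 without it. Myl4, the embryonic and atrial light chain, was at 10.92, 11.39 and 11.27 in the knockout against 9.85, 11.11 and 10.76 in the wild type. In this gene the third wild-type array was also below every knockout array, and the change was 0.62 (SE 0.27, adjusted p = 0.304; 0.0269 with the replicate block, by limma) with all arrays and 0.26 without the first. Mylpf, the fast regulatory light chain, was at 8.08, 8.49 and 8.62 in the knockout against 7.47, 8.35 and 8.27 in the wild type (difference 0.37, SE 0.22, adjusted p = 0.468 by limma and 0.0449 with the replicate block; 0.09 without wild-type replicate 1). Mybpc1, the slow myosin-binding protein C, was at 10.07, 10.16 and 10.24 against 9.01, 9.98 and 9.85, so its groups did not overlap (change 0.54, SE 0.21, adjusted p = 0.247; 0.24 without wild-type replicate 1). Mybpc2, the fast form, ran only from 7.80 to 8.03 over all arrays, with a change of 0.01 (SE 0.08).

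In the thin filament, the cardiac actin gene Actc1, which fetal skeletal muscle also uses, and the skeletal actin gene Acta1 varied most. Actc1 was at 11.76, 12.28 and 12.33 in the knockout against 10.07, 12.09 and 11.56 in the wild type. Acta1 was at 11.53, 11.72 and 11.83 in the knockout against 10.19, 11.53 and 11.61 in the wild type. In wild-type replicate 1, Actc1 was 3.38-fold and Acta1 2.60-fold below the mean of the other wild-type arrays. Their changes were 0.88 (SE 0.42) and 0.59 (SE 0.31), and 0.30 and 0.13 without that array. Tpm2, the beta-tropomyosin, differed by 0.28 (SE 0.16) and by 0.08 without it.

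The troponin genes had smaller ranges. Tnnc1, the slow and cardiac calcium sensor, was at 9.02, 9.06 and 8.998 in the knockout against 8.59, 8.997 and 8.77 in the wild type, so the groups lay next to each other without overlapping (change 0.24, SE 0.10, adjusted p = 0.255 by limma; 0.15 without wild-type replicate 1). Tnni1, the slow inhibitory subunit, was at 9.16, 9.51 and 9.37 against 8.82, 9.38 and 8.96, with a change of 0.29 (SE 0.14, adjusted p = 0.35 by limma and 0.0464 with the replicate block; 0.18 without wild-type replicate 1). The fast genes Tnnc2, Tnni2 and Tnnt3 differed by 0.28, 0.20 and 0.34, and by 0.10, 0.05 and 0.04 without wild-type replicate 1. Tnnt1, the slow tropomyosin-binding subunit, was at 8.31, 8.42 and 8.36 against 8.29, 8.54 and 8.41, a change of -0.05 (SE 0.08). Tnnt3 and Tnni2 lie on chromosome 7 with 1 protein-coding gene between them.

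The actin promoters are shown in the same way, since both genes fell far below the other arrays in the same sample. Actc1 lies at chr2:114052876-114053025 on the minus strand and Acta1 at chr8:123894776-123894925 on the minus strand. Each holds a CArG box, at bases 47 to 38 before the start in Actc1 and at bases 73 to 64 in Acta1, and Acta1 holds TATAAA at bases 7 to 2.
Actc1: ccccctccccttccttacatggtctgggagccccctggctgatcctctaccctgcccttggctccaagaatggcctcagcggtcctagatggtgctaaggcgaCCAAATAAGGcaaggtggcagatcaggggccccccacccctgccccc
Acta1: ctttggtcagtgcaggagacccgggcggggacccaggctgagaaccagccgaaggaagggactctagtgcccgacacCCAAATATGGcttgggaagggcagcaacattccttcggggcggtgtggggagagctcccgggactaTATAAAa

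The RefSeq table held 33 promoters of 30 of the 40 genes, each from 250 bases before to 50 bases after the start. An E-box was present in 26 of the 33 (78.8%) and in 72.3% of all 32851 promoters of the table. TATAAA was present in 10 (30.3%, against 13.6% of all), the CArG box in 5 (15.2%, against 1.63%) and the MEF2 motif in 2 (6.06%, against 0.557%). The genes with a CArG box were Acta1, Actc1, Ldb3 and Myh4, and those with a MEF2 motif were Myoz2 and Ttn. These are matches of letters and not measured binding. Genes with a CArG box had both wide and narrow ranges over the arrays, with Actc1 at 2.26 and Myh4 at 0.32 log2 units.

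Titin and nebulin, the giant proteins that span the sarcomere, moved closely with the mean of the other members. Ttn was at 9.91, 9.74 and 10.28 in the knockout against 8.59, 9.87 and 9.64 in the wild type. Neb was at 9.68, 9.83 and 10.17 in the knockout against 8.41, 9.66 and 9.64 in the wild type. For Neb the highest wild-type array lay just under the lowest knockout array, while for Ttn the groups overlapped. Their changes were 0.61 (SE 0.29) and 0.66 (SE 0.30), with adjusted p of 0.342 and 0.324 by limma, and 0.22 and 0.24 without wild-type replicate 1.

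Des encodes desmin, the intermediate filament that links Z-discs. It was at 9.12, 9.26 and 9.38 in the knockout against 8.12, 9.02 and 9.02 in the wild type, with no overlap (change 0.53, SE 0.21, adjusted p = 0.253 by limma; 0.23 without wild-type replicate 1, adjusted p = 0.346). Actn2, the alpha-actinin of heart and of all skeletal fibres, differed by 0.50 (SE 0.21), and Actn3, the fast-fibre form, by 0.10 (SE 0.10). The Z-disc proteins Myoz1 (fast) and Myoz2 (slow and cardiac) differed by 0.34 each (SE 0.23 and 0.15) and Ldb3 by 0.16 (SE 0.08). Tcap, which caps titin, ran only from 7.77 to 8.01, with a change of -0.04 (SE 0.07) and a mean level at the 25.3 percentile. Without wild-type replicate 1 the values were 0.22 for Actn2, -0.01 for Actn3, 0.08 for Myoz1, 0.17 for Myoz2 and 0.12 for Ldb3. Of this group of 9 genes, Tcap was the one for which wild-type replicate 1 was not the lowest array.

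Genes of the calcium store also had their lowest value in wild-type replicate 1. Casq2, the cardiac and slow calsequestrin that buffers calcium in the store, was at 9.18, 9.37 and 9.41 in the knockout against 8.08, 9.26 and 8.94 in the wild type (change 0.56, SE 0.24). Casq1, the fast form, was at 8.79, 8.96 and 9.34 against 8.17, 9.07 and 9.11 (change 0.24, SE 0.24). Without wild-type replicate 1 the changes were 0.22 for Casq2 and -0.06 for Casq1. Atp2a1, the fast-fibre calcium pump, differed by 0.36 (SE 0.17), and Ryr1, the calcium release channel, by 0.13 (SE 0.09). Without wild-type replicate 1 these differed by 0.16 and 0.11. Ckm, muscle creatine kinase, which buffers ATP, was at 10.22, 10.69 and 10.77 against 9.42, 10.57 and 10.56, and its change of 0.38 (SE 0.28) became -0.01 without that array.

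Trdn, which anchors calsequestrin to the release channel, had 19 probe sets and was the only one of the 40 genes with more than 1. The probe set with the highest mean was 0.06 higher in the knockout (SE 0.16; -0.12 without wild-type replicate 1), and the 19 ranged from -0.29 to 0.43. Wild-type replicate 1 was the lowest array for 15 of the 19.

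The 5 muscle-forming genes had a median range of 0.35 log2 units over the arrays, against 0.81 for all 40 genes, and of 0.35 against 0.38 without wild-type replicate 1. Myod1 was at 8.54, 8.53 and 8.75 in the knockout against 8.48, 8.64 and 8.62 in the wild type. Myog was at 8.24, 8.22 and 8.46 against 8.25, 8.50 and 8.14. The groups overlapped in both, with changes of 0.03 (SE 0.08) and 0.01 (SE 0.10). Myf5 differed by 0.12 (SE 0.07), its chromosome 10 neighbour Myf6 by 0.09 (SE 0.10) and Mymk by 0.15 (SE 0.11). Without wild-type replicate 1 they differed by 0.07, 0.03 and 0.09. The mean level of Myf5 was at the 14.9 percentile of all genes. For none of the 5 was wild-type replicate 1 lowest by 0.5 log2 units or more.

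**Figure D2:**
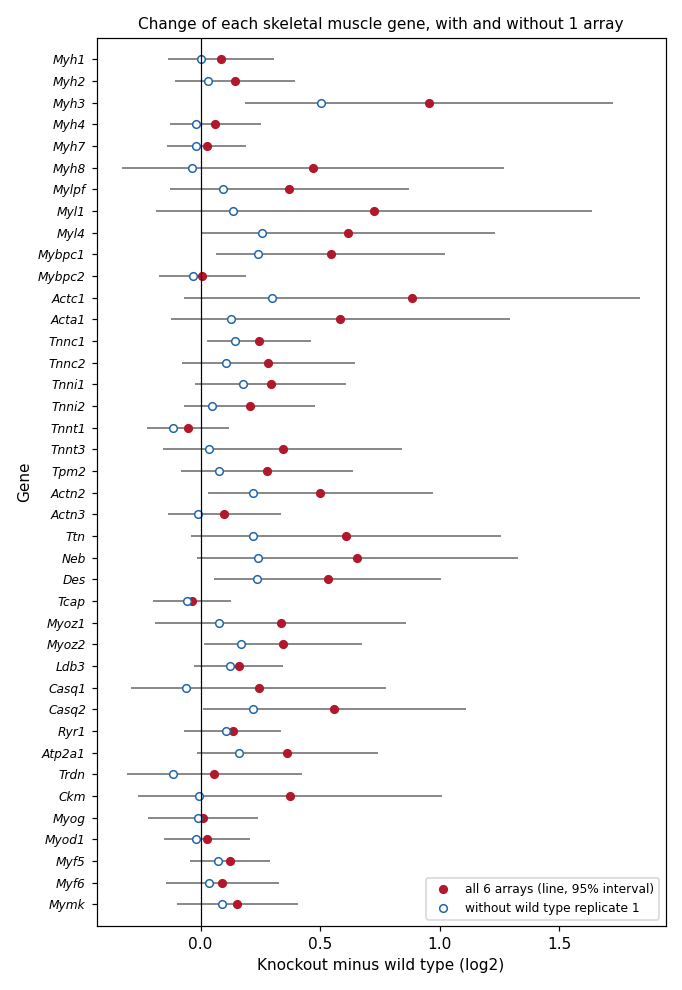
Knockout minus wild type (log2) for each muscle gene with all 6 arrays (filled points; lines are 95% intervals from limma) and without wild-type replicate 1 (open points). With all arrays 38 of 40 points lie above 0, and without that array 28 do, with Myh3 at 0.50 the only change larger than 0.3.

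The labels number the samples 1 to 3 in each genotype, and a model with that number as a replicate block called 4 of the 40 genes, all higher in the knockout, where it called 2.11% of all genes higher. These were Myl4 (adjusted p = 0.0269), Myh3 (0.0438), Mylpf (0.0449) and Tnni1 (0.0464), by limma. The array numbered 1 was the lowest of its genotype for 23 of the 40 genes in the knockout and for 38 in the wild type. The share of all genes is not given for these counts. Most of the 40 genes moved together, so the counts describe single arrays and do not show that the numbers pair the samples. In a blocked model without the arrays numbered 1, none of the 40 passed and the median change was 0.13. Myh3 also passed in the model without a block when wild-type replicate 2 was left out (change 1.37, adjusted p = 0.0225 by limma), which leaves the 2 wild-type arrays that were low for this gene.

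Paired isoforms were compared within each array, as the log2 value of the fast or later form minus that of the slow, cardiac or earlier form. Such a difference is not a ratio of transcripts, and where one form hardly varied it follows the other form alone. Mybpc2 and Myh4 were of this kind, with mean levels at the 25.1 and 23.0 percentiles of all genes and no detection call to say whether they were above background. Over 12 pairs, 8 differences were lower in the knockout, and the groups did not overlap for 2 pairs. Mybpc2 minus Mybpc1 was -2.26, -2.27 and -2.26 in the knockout against -1.20, -2.16 and -1.82 in the wild type (difference -0.54, 2-sided exact permutation p = 0.1, 0.6 after Benjamini-Hochberg adjustment over the 12 pairs). Actn3 minus Actn2 was -1.13, -1.23 and -1.25 in the knockout against -0.46, -1.10 and -0.84 in the wild type (difference -0.40, exact permutation p = 0.1, adjusted 0.6). Actn2 was paired as the cardiac form but is also used in all skeletal fibres, so its pair does not set a fast form against a slow one. With 3 arrays against 3 the smallest p is 0.1, so no pair could pass. Without wild-type replicate 1 the 2 differences were -0.27 and -0.23.

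The embryonic-to-neonatal myosin pair showed where the third wild-type pool differed. Myh8 minus Myh3 was 0.80, 0.47 and 0.97 in the knockout against 1.12, 0.88 and 1.70 in the wild type (difference -0.49, exact permutation p = 0.2, adjusted 0.6; -0.54 without wild-type replicate 1). Casq1 minus Casq2 was -0.39, -0.41 and -0.07 against 0.09, -0.19 and 0.17 (difference -0.32, exact permutation p = 0.2, adjusted 0.6). Wild-type replicate 3 was above every knockout array in 7 of the 12 pairs. The groups overlapped in the myosin and calsequestrin pairs, because one knockout array, replicate 3, reached or passed the lowest wild-type array.

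Taken gene by gene, the slow, cardiac or earlier isoforms and the fast or later isoforms differed in which wild-type arrays were low; Myh8 stands in both sets, as the later form of Myh3 and the earlier form of Myh4. Wild-type replicate 1 was below every knockout array for 12 of 12 earlier or slow isoforms and for 11 of 12 later or fast ones. The same held for 6381 of all 19937 genes. Wild-type replicate 3 was below every knockout array for 9 of 12 earlier or slow isoforms (75%) and for 0 of 12 later or fast ones. Of all 40 members it was below every knockout array for 14 (35%), as it was for 29.3% of all genes. Ttn, Neb, Des, Myog and Myf6, which stand in no pair, were among the 14. Wild-type replicate 2 was below every knockout array for 2 and 1, and for 4722 of all 19937 genes. The median difference between wild-type replicates 3 and 2 was -0.27 log2 units for the first set, 0.05 for the second and -0.02 for all genes. Without wild-type replicate 1, the median change was 0.20 in the first set and 0.03 in the second. These are descriptions of single pools and carry no test.

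**Figure D3:**
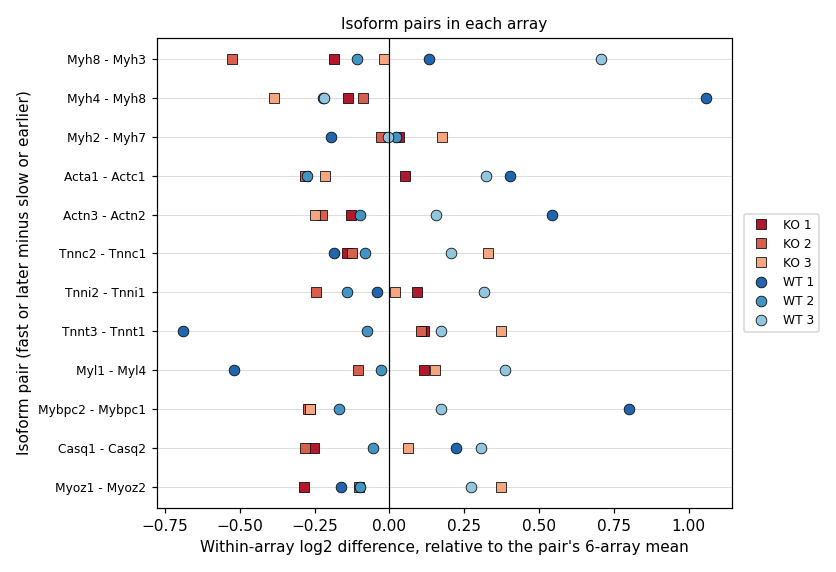
Within-array log2 difference of 12 isoform pairs, relative to each pair's mean over 6 arrays, for the 3 knockout (KO, squares) and 3 wild-type (WT, circles) arrays. Wild-type replicate 3 lies to the right of every knockout array in 7 of the 12 pairs, and the groups do not overlap for Actn3 minus Actn2 and Mybpc2 minus Mybpc1.

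Across the 6 arrays most of the 40 genes were high and low in the same samples. The median Pearson correlation of a gene with the mean of the other 39 was 0.92, with Neb (0.995) and Actn2 (0.994) closest and Tcap (0.24) and Myog (0.37) least close. Without wild-type replicate 1 the median was 0.68, and 3 genes instead of 22 exceeded 0.9. All these values share the same 6 hybridisations, so they describe the arrays and carry no p.

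Further skeletal muscle genes outside the 40 were followed on 3 lists, of which 114 were measured in all. None of them passed by limma, while 25 (21.9%) had an unadjusted p under 0.05, against 16.1% of all genes. Every knockout array lay above every wild-type array for 14 of 46 contractile and Z-disc genes. The same held for 9 of 47 excitation, calcium and metabolism genes, 3 of 21 satellite cell and myoblast genes and 10.8% of all genes. Every knockout array lay below for 1 of the 47 and for 2052 of all 19937 genes. The lowest array was wild-type replicate 1 for 55 of the 114 (48.2%), against 20.8% of all genes. By list, in the order above, it was the lowest for 29 of 46 (63.0%), 20 of 47 (42.6%) and 6 of 21 (28.6%). On the list of further contractile and Z-disc genes (46 measured, median change 0.08), the largest change was Klhl41, a sarcomere-stabilising kelch protein, at 0.59 (SE 0.23, adjusted p = 0.252 by limma), and the smallest was Klhl40 at -0.14. The first 2 listed, the cardiac myosins Myh6 and Myh7b, were at 0.05 and -0.12. On the list of excitation, calcium and metabolism genes (47 measured, median 0.05), the largest was Srl, sarcalumenin, a calcium-binding protein of the sarcoplasmic reticulum, at 0.45 (SE 0.18, adjusted p = 0.266) and the smallest Kcnj11 at -0.21. The calcium channel subunits Cacna1s and Cacng1, first on that list, were at 0.03 and 0.12. Satellite cell and myoblast genes (21 measured) had a median of 0.12, with the precursor factors Pax7 at 0.02 and Pax3 at 0.20. The changes on this list ran from -0.21 (Mymx) to 0.33 (Six4), with 16 of the 21 positive, against 53.0% of all genes. The mean of this list was 9.23, 9.26 and 9.30 in the wild type and 9.33 to 9.41 in the knockout. The groups of list means thus did not overlap, which was not tested. In the blocked model 7 of the 114 (6.14%, against 2.11% of all genes) were higher: Klhl41, the enolase Eno3, the glycogen phosphorylase Pygm, the acetylcholine receptor subunit Chrna1, the sarcoglycan Sgca, Six4 and Mef2c.

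Markers of other tissues were measured in the same arrays, each list as a mean over its genes. None of the 12 heart muscle genes passed (median -0.03, with the cardiac troponin Tnni3 at 0.17 and the natriuretic peptide Nppa at 0.01), and wild-type replicate 1 was the lowest array for 1 of 12. Among 15 smooth muscle and pericyte genes Hhip, a hedgehog-binding protein, rose (0.43, SE 0.08, adjusted p = 0.0201 by limma). It no longer passed without wild-type replicate 1 (0.42, adjusted p = 0.0857) or 2 (0.44, adjusted p = 0.0585). The other 14 did not pass, with the smooth muscle actins Acta2 and Actg2 at 0.13 and 0.11, and wild-type replicate 1 was the lowest array for 4 of 15.

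No gene passed among 6 tendon, 14 cartilage, 8 bone, 8 adipocyte, 5 Schwann cell, 10 respiratory epithelium and 3 red blood cell genes. With the replicate block 1 tendon, 1 bone, 1 respiratory and 1 red blood cell gene were called higher, against 2.11% of all genes. The same model called 1 respiratory gene lower, and 889 of all 19937 genes. Within these lists, in the order above, wild-type replicate 1 was the lowest array for 2, 1, 4, 0, 1, 4 and 1 genes. The first measured genes of these lists were at -0.10 and 0.23 (Scx and Tnmd, tendon), -0.01 and 0.16 (Col2a1 and Acan, cartilage), and 0.04 and 0.18 (Sp7 and Ibsp, bone). The others were at 0.09 and 0.17 (Adipoq and Fabp4, fat), -0.02 and 0.20 (Mbp and Pmp22, Schwann cells), -0.0041 and 0.18 (Foxj1 and Dnah5, cilia), and 0.39 and -0.04 (Alas2 and Slc4a1, red blood cells). The list mean of wild-type replicate 1 was below every knockout array for bone (9.63 against 9.73 to 10.1) and tendon (8.61 against 8.73 to 8.85), and within the knockout range for cartilage (9.18 against 9.14 to 9.31) and fat (7.75 against 7.69 to 7.85). For red blood cells it was also below every knockout array (8.408 against 8.416 in the lowest). Such low means were not limited to this array: wild-type replicate 2 was below every knockout array for bone and smooth muscle, and wild-type replicate 3 for tendon, cartilage, red blood cells and smooth muscle.

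The mean of the 7 tooth enamel genes was highest in the array that was lowest for muscle, though Ambn was highest in wild-type replicate 2. The list mean was 10.1 in wild-type replicate 1, 9.64 and 8.82 in wild-type replicates 2 and 3, and 7.89 to 8.49 in the knockout. Enam, which encodes an enamel matrix protein, fell by 2.47 (SE 0.51, adjusted p = 0.0301 by limma). Amelx, which encodes another, fell by 1.98 (SE 0.46, adjusted p = 0.0499). Neither passed without wild-type replicate 1 (-2.05 and -1.601, adjusted p = 0.101 and 0.169), wild-type replicate 2 (adjusted p = 0.0928 and 0.123), knockout replicate 1 (0.0859 and 0.140) or knockout replicate 2 (0.131 and 0.177), and Enam did not without knockout replicate 3 (0.0576). Both passed by limma without wild-type replicate 3 (-3.20 and -2.41, adjusted p = 0.000186 and 0.0164), as did Amelx without knockout replicate 3 (adjusted p = 0.0201). With the replicate block 4 of the 7 enamel genes were called lower, as were 889 of all 19937 genes. How much the surrounding tissue in each dissection bears on the muscle values was not tested. Of 12 mature olfactory neuron genes 11 fell, with list means of 11.02, 10.7 and 10.8 in the wild type and 9.17 to 9.29 in the knockout. The 4 that fell furthest were S100a5 (-2.74), Stoml3 (-2.57), Gnal (-2.36) and Omp (-2.23), and each passed by limma with any 1 array left out.

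**Figure D4:**
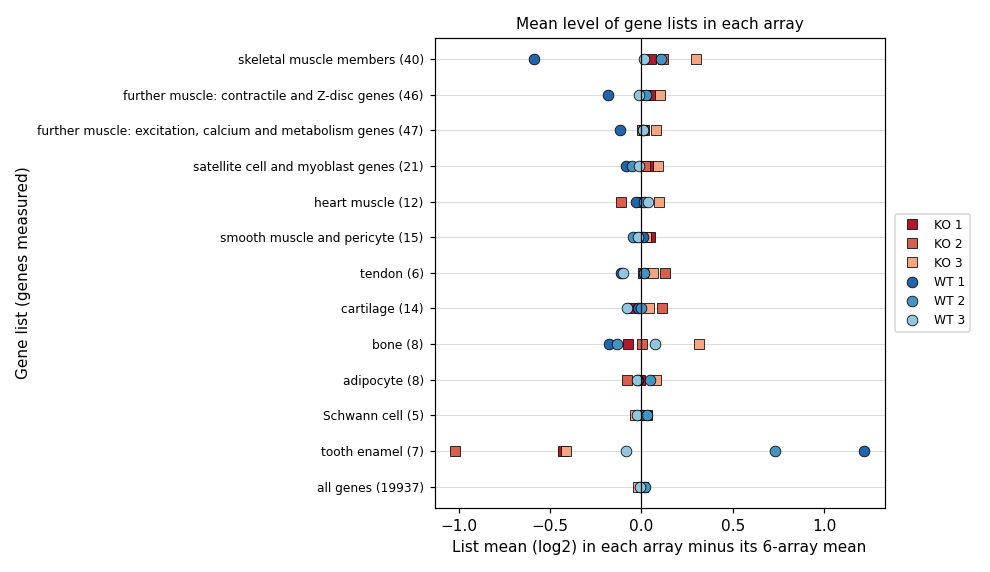
Mean log2 level of each gene list in each array, minus the list's mean over 6 arrays, for the 3 knockout (KO, squares) and 3 wild-type (WT, circles) arrays; the number of genes measured stands behind each name. The 40 muscle genes and, less so, the further muscle lists are lowest in wild-type replicate 1, as are the bone and tendon lists. The tooth enamel list is highest in that array.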

How the data were processed

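RNA was hybridised to 1-colour whole-transcript arrays. The authors deposited normalized values, read here as log2 levels because they ran from 4.50 to 14.7; the log base is not stated, and RMA, affy and limma are named without versions per the submitters' processing notes. RMA as generally defined makes arrays share one distribution. The table held 34760 rows, 21640 with 1 gene symbol in GEO's platform annotation, 1321 with several (0 naming one of the 40 genes) and 11799 with none; columns of other samples numbered 0. The probe set with the highest mean over 6 arrays stood for a gene, which gave 19937 genes. Symbols of 3 list genes were updated through the RefSeq gene table.

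Knockout and wild type, grouped by sample title, were compared with limma 3.58.1 in R 4.3.3 (lmFit, eBayes, no covariate, 2-sided, Benjamini-Hochberg over all genes, threshold 0.05), and isoform pairs by an exact permutation test. The procedure was tested on simulated data. The 40 genes, the other lists, the isoform pairs and the tests were chosen with earlier results of these data known. Every one of the 40 genes is named. Other lists are represented by their first 2 measured genes, the extremes of the contractile and the excitation lists, and up to 4 genes past the threshold. Genes called with the block, and also Mymx and Ambn, were named after their values were seen.

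Deviations of same-numbered arrays from their genotype means correlated at 0.295, 0.122 and 0.234 over all genes, all above 0.1. This correlation is the only ground for pairing samples by number, since no label states what equal numbers have in common. Correlations of differently numbered arrays are not given here. With the pairing unsure, the main model had no block, and the block served as an alternative. The replicate block, array scaling, a filter on dim genes, another variance prior, the mean of probe sets, all rows, and each array left out were the alternatives. No pair of arrays shared more than 12 identical values, and all were kept as separate samples.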

Additional observations from a re-analysis of the deposited data

How the results depend on the processing

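The model with the replicate block gave 1310 changed genes against 745 without it, and 4 against 0 among the 40 muscle genes, and it altered no other call among the 40. The total was 432 without dim genes and 401 when all rows were tested, fewer or more rows being tested by construction, and 410 to 649 with 1 array left out; the causes of the other shifts were not tested. The muscle count was 0 to 1 with 1 array left out and 0 in all other settings but the block. With 1 array left out the change of some muscle genes that did not pass took the other sign: Myh4 ran from -0.0200 to 0.12, Myh7 from -0.0190 to 0.0732, Myh8 from -0.0371 to 0.74, Mybpc2 from -0.0372 to 0.0787, Actn3 from -0.0110 to 0.17, Casq1 from -0.0623 to 0.41, Trdn from -0.12 to 0.19, Ckm from -0.0054 to 0.57, Myog from -0.0682 to 0.11, Myod1 from -0.0460 to 0.0673, Tcap from -0.0993 to 0.0196 and Tnnt1 from -0.11 to 0.0116. So did 5 isoform pairs: Myoz1 minus Myoz2 (-0.20 to 0.13), Tnni2 minus Tnni1 (-0.18 to 0.0468), Tnnc2 minus Tnnc1 (-0.11 to 0.15), Myh4 minus Myh8 (-0.62 to 0.0171) and Myl1 minus Myl4 (-0.12 to 0.33). In the blocked model without the arrays numbered 1, an alternative chosen after seeing the data, Myh1 was at -0.046, Myh4 at -0.015, Myh7 at -0.062 and Trdn at -0.14. Quantile normalization, median centring, the trended and robust prior and the mean of probe sets changed neither the call nor the direction of any of the 40 genes. The number of arrays, and no detection call for a probe set, limit what could be measured.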

Other observations

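Outside the 40 genes, 311 genes had a range of at least 1 log2 unit over the 6 arrays, and the 15 whose pattern was most like the mean of the muscle genes were listed by Pearson correlation, as a description over 6 arrays that share their hybridisations. The closest was Atp1b4, a muscle member of the Na,K-ATPase beta-subunit family, with r = 0.988. It was at 9.72, 10.01 and 10.1 in the knockout against 7.94, 9.81 and 9.50 in the wild type, so wild-type replicate 1 lay 1.56 log2 units below the next array. Srl (0.976), Klhl41 (0.961), Smpx (0.931) and Myot (0.921) stood on the further muscle lists. Nrk (0.954), AW551984 (0.947), Fndc3c1 (0.902), H2ac4 (0.812) and Rtl3 (0.766) stood on none of the lists. Of these 10 genes H2ac4 passed between knockout and wild type (change 0.68, adjusted p = 0.0238 by limma), but not without wild-type replicate 1 (0.55, adjusted p = 0.0718), knockout replicate 2 (0.61, adjusted p = 0.104) or knockout replicate 3 (0.62, adjusted p = 0.0738). The last 5, Cpa3, Caps2, Ly96, Sfrp4 and Lipi, had r of 0.657 to 0.667, and for Cpa3 and Caps2 it was 0.00 and -0.05 without wild-type replicate 1.

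Of the 27 genes that were lowest in wild-type replicate 1 by at least 0.5 log2 units, 18 were among the 40, 4 on the further muscle lists and 5 on no list. The 5 were Atp1b4, AW551984, Fndc3c1, Nrk and the Y-linked Eif2s3y, named after their values were seen.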
